A study of Saccharomyces cerevisiae with 8 samples.

Results

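The ATG genes of budding yeast encode the core machinery and the cargo receptors of autophagy. They were taken here as every row of the deposited gene count table whose name is ATG followed directly by a number, which gave 34 genes of 6120, spread over 13 of the nuclear chromosomes. Autophagy encloses cytoplasm, protein complexes or organelles in a growing double membrane, the autophagosome, which fuses with the vacuole so that its content is broken down and reused. The Atg1 kinase complex starts the process, vesicles with Atg9 and the lipid transfer protein Atg2 supply membrane, and the lipid-bound ubiquitin-like protein Atg8 coats the membrane and binds receptors that carry the cargo. In growing yeast a constitutive branch, the cytoplasm-to-vacuole targeting (Cvt) pathway, uses the same machinery to bring hydrolases to the vacuole, whereas bulk autophagy is known for its induction by nitrogen starvation.

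Polyadenylated RNA was sequenced from 4 strains with 2 libraries each, from cultures in mid-log growth at 30°C in SC medium, a synthetic complete medium. In the ubc9-6 strain the UBC9 locus holds ubc9-1 copies in tandem with TRP1 between them, and has reduced activity of Ubc9, the only SUMO-conjugating enzyme of yeast. Tfg1-K60,61R-HA carries arginine in place of the neighbouring lysines in its name, which the study mutated to impair SUMO attachment to Tfg1, the large subunit of the general transcription factor TFIIF. It also has an HA epitope tag on Tfg1, a Kluyveromyces lactis TRP1 marker and, according to the study's strain list, an unintended asparagine-to-glutamine substitution elsewhere in Tfg1. Tfg1-HA has the tag and the K. lactis TRP1 marker without these substitutions. W303a, the MATa parent of all, has neither and shares with them the ura3, leu2, his3, ade2 and can1 mutations of its background. W303a also has the trp1 deletion that the TRP1 marker complements in the other 3 strains, so any effect of the marker cannot be told apart from that of the allele or the tag in every comparison against W303a. The design text calls the libraries independent replicates but does not say whether they came from separate colonies.

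The libraries held 26674458 to 34614232 counts assigned to genes, and the ATG genes took 0.106 to 0.133% of them. UBC9 RNA itself was 1.32 higher in ubc9-6 than in W303a on the log2 scale, with 184 and 189.5 CPM in ubc9-6, 82.5 and 83.2 CPM in Tfg1-K60,61R-HA, 81.6 and 81.7 CPM in Tfg1-HA, against 74.1 and 75.6 CPM in W303a. The 7 mating type a markers summed to 1117 to 1586 CPM in every library and the 4 markers of mating type alpha to 31.1 to 45.6 CPM. Of the latter, the pheromone gene MF(ALPHA)1 had at most 2.8 CPM, so the other alpha markers held most of that sum. The alpha markers had been picked as genes that should be nearly absent from these strains, and as a set they were low but not absent. The 4 sporulation markers summed to 30.6 to 36.4 CPM. The libraries of Tfg1-K60,61R-HA differed most from each other, with an SD of the log2 difference between replicates of 0.261 over all genes and 0.207 over the ATG genes, against 0.118 to 0.150 over all genes and 0.098 to 0.113 over the ATG genes in the other strains.

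Levels are given as CPM, the count of a gene per 1000000 counts of the library size after scaling by the trimmed mean of M values (TMM). Each comparison is a log2 fold change ± SE (n = 2 libraries per strain) from edgeR's quasi-likelihood test fitted to all 8 libraries and 5909 genes, with Benjamini-Hochberg adjusted p-values over all of those genes, and a gene is described as changed where the adjusted p was under 0.05. All 34 ATG genes passed the filter on low counts. The p-values set each difference against a spread between replicate libraries that was estimated from all 8 libraries together. With 2 libraries a side the smallest two-sided p of an exact permutation test for 1 gene would be 0.333.

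Most ATG genes were expressed at a low level. Per kb of counted sequence the median ATG gene had 21.6 CPM over the 4 strains, against 46.2 CPM per kb for all genes tested. ATG41, known for its part in Atg9 transport and strong starvation induction, was the highest with 149 CPM per kb. ATG27, which encodes a membrane protein that travels with Atg9, followed with 116, ATG8 with 110, ATG33 with 97.7 and ATG19 with 83.0 CPM per kb. The lowest were ATG1 with 8.17 and ATG39 with 8.26 CPM per kb. In ubc9-6 ATG1 had 11.1 and ATG39 8.27 CPM per kb, whereas in W303a ATG1 had 7.34 and ATG39 4.05 CPM per kb, so the order at the low end depended on the strain.

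**Figure D1:**
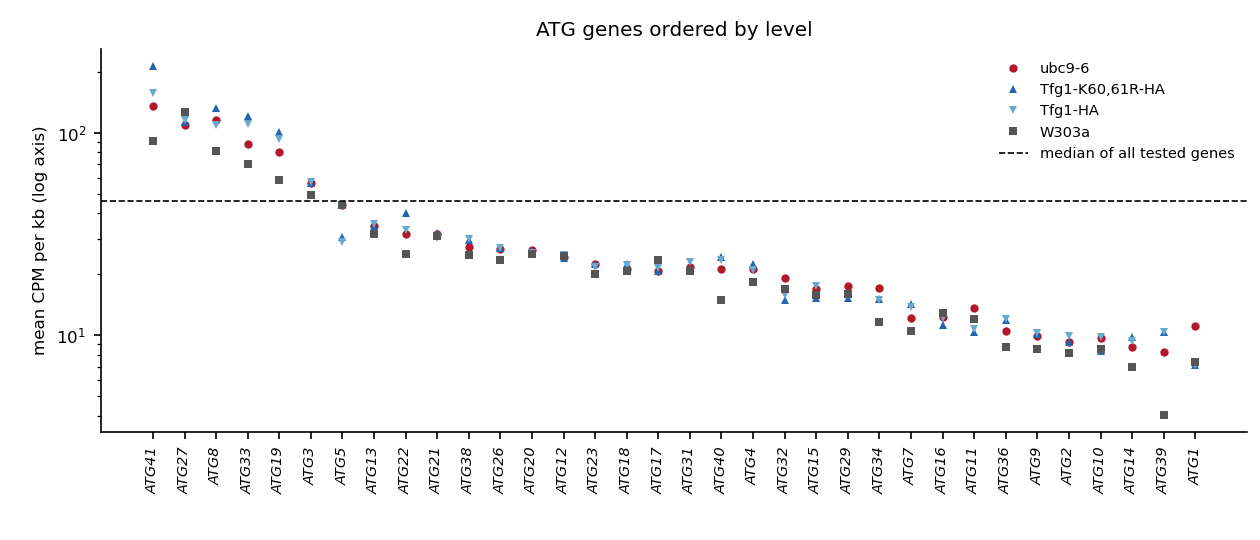
Mean level of each ATG gene per kb of counted sequence (vertical axis, CPM per kb, log axis) in the 4 strains, with genes ordered along the horizontal axis by their mean over strains. The dashed line is the median of all genes tested, 46.2 CPM per kb, and 6 ATG genes lie above it on average.

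Across strains, W303a had the lowest mean level for 22 of the 34 ATG genes and the highest for 3. The ATG genes together held 1208 and 1263 CPM in ubc9-6, 1357 and 1246 CPM in Tfg1-K60,61R-HA and 1245 and 1260 CPM in Tfg1-HA, against 1080 and 1083 CPM in W303a. The highest strain mean was 1.5-fold or more above the lowest for 9 genes, led by ATG39 with 2.56-fold and ATG41 with 2.36-fold. For 16 genes the strain means lay within 1.2-fold, among them ATG12, ATG20 and ATG21, with 1.04, 1.04 and 1.05-fold.

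**Figure D2:**
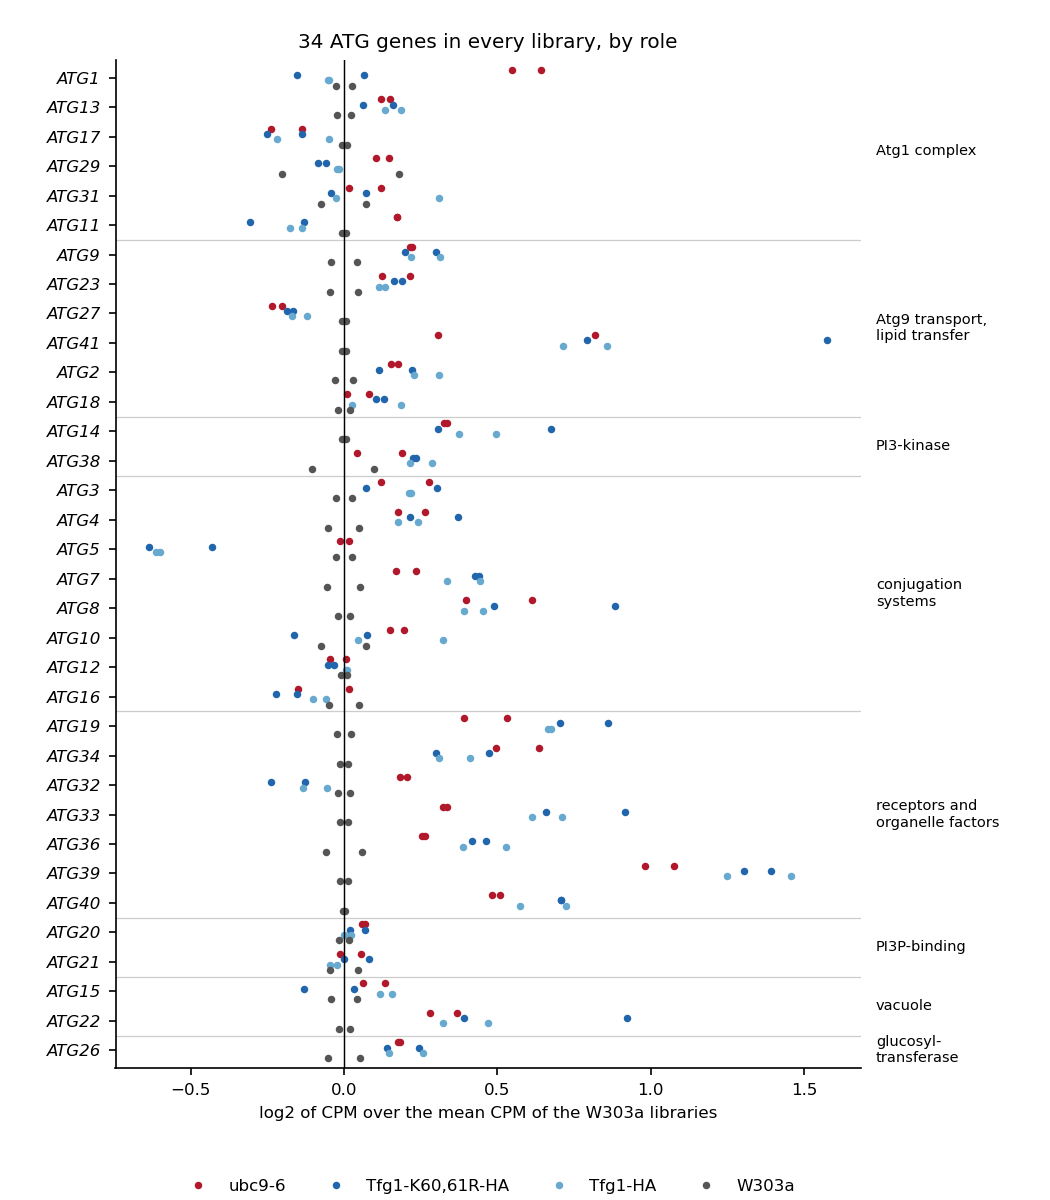
Every library's level of the 34 ATG genes, grouped by role, as the log2 of its CPM over the mean CPM of the W303a libraries (horizontal axis). Each point is 1 library, coloured by strain, and W303a libraries straddle 0 by construction. ATG39, ATG19, ATG33 and ATG40 lie right of 0 in all 6 libraries of the other strains, as do genes of other roles, such as ATG8, ATG41 and ATG7. ATG1 lies right of 0 in both ubc9-6 libraries, and ATG5 lies left of 0 in the 4 libraries of the tagged strains.

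The comparison of ubc9-6 with W303a asked which genes differ when SUMO conjugation is impaired. Of the 34 ATG genes, 7 were higher in ubc9-6 (ATG1, ATG8, ATG19, ATG33, ATG34, ATG39 and ATG40) and ATG27 was lower. These 8 are 23.5% of the ATG genes, against 20.8% of all genes tested, and the 7 that were higher are set against 11.4% of all genes tested that were higher. ATG27 alone (1 of 34) is set against 9.36% that were lower. The log2 fold change was positive for 30 of the 34 genes (88.2%), against 49.1% of all genes, with a median of 0.18 against -0.0038 for all genes. Both ubc9-6 libraries lay above both W303a libraries for 24 ATG genes and below them for 2, whereas 35% of all genes tested lay above and 36.4% below. The number of ATG genes that passed depended on the libraries in the fit. It was 4 without ubc9-6 replicate 2, 5 without either W303a replicate and 19 without either Tfg1-K60,61R-HA replicate, whose libraries enter only the common estimate of spread. ATG1, ATG19, ATG39 and ATG40 passed in each of the 8 fits without 1 library.

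The comparison of Tfg1-K60,61R-HA with Tfg1-HA asked what the substitutions in Tfg1 changed beyond the tag. The lysine substitutions and the unintended asparagine-to-glutamine substitution cannot be told apart in it. No ATG gene passed the edgeR quasi-likelihood test (0 of 34), and neither did any other gene tested (0% of 5909), with an unadjusted p under 0.05 for 2 ATG genes and for 572 genes in all (9.68%). The median ATG log2 fold change was -0.0078 against -0.0026 for all genes, with 16 positive and 18 negative. The 95% interval of the fold change lay within 1.5-fold in both directions for 32 of the 34 genes, ATG41 and ATG22 being the exceptions. The study's own edgeR analysis of RNA in these strains reported significant differences for a small number of genes. With edgeR's likelihood ratio test 3 genes passed, none of them an ATG gene. DESeq2 gave no ATG gene an adjusted p in this comparison, because its filter on mean counts set all of them aside. It gave 525 genes an adjusted p, of which 36 passed (6.86%). Without Tfg1-K60,61R-HA replicate 2, with 1 library of that strain left, 4 ATG genes (ATG8, ATG22, ATG33 and ATG41) were higher in Tfg1-K60,61R-HA and 7.52% of all genes passed in either direction, but without replicate 1 no gene passed.

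Tagged Tfg1 was compared with its untagged parent to read the background of both tagged strains. In Tfg1-HA, 15 ATG genes were higher and 2 lower (ATG5 and ATG27) than in W303a, 50% of the 34 against 43% of all genes tested. In Tfg1-K60,61R-HA, 16 were higher and 4 lower (ATG5, ATG11, ATG27 and ATG32) than in W303a, 58.8% against 49.4% of all genes. Of these 20, ATG32 passed in 2 of the 15 alternative settings, ATG23 in 4 and ATG2 in 5. The share of higher genes was 15 of 34 in Tfg1-HA, against 21.5% of all genes, and 16 of 34 in Tfg1-K60,61R-HA, against 24.9%, while 21.5% and 24.5% of all genes were lower in these strains. These comparisons and that of ubc9-6 share the W303a libraries and are not independent of each other. The count for Tfg1-HA was 7 without Tfg1-HA replicate 2, 9 without W303a replicate 1 and 9 without W303a replicate 2, and that for Tfg1-K60,61R-HA was 13 without W303a replicate 2. ATG5, ATG7, ATG19, ATG33, ATG36, ATG39 and ATG40 passed for Tfg1-HA in each of the 8 fits without 1 library. The remaining ATG calls for Tfg1-HA, among them ATG8, ATG13 and ATG41, were each lost in at least 1 of these fits.

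**Figure D3:**
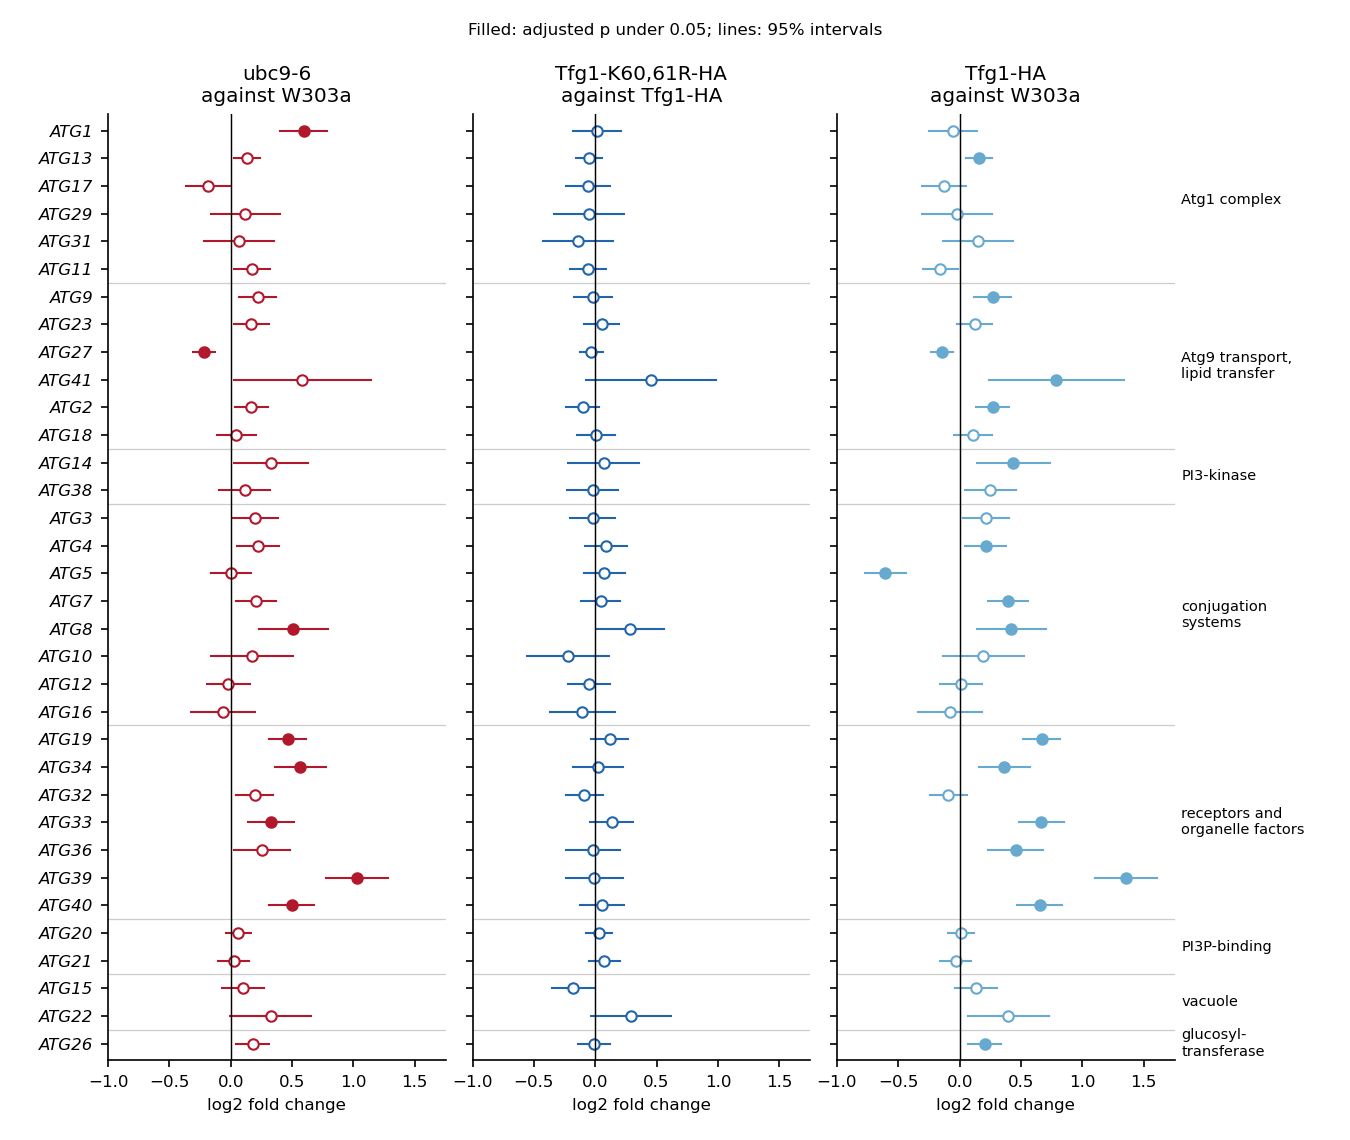
Log2 fold change of each ATG gene (points) with its 95% interval (lines) in 3 comparisons, with genes grouped by role. Filled points passed an adjusted p of 0.05, which 8 genes did for ubc9-6 against W303a, 0 between Tfg1-K60,61R-HA and Tfg1-HA and 17 for Tfg1-HA against W303a.

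Of the ATG roles, the cargo receptors and organelle-specific factors had the highest median log2 fold change against W303a in ubc9-6 and in Tfg1-HA, though not between the tagged strains, and roles were not tested against each other. Of these 7 genes, 5 were higher in ubc9-6 than in W303a (median 0.46), set against 11.4% of all genes, 6 were higher in Tfg1-HA than in W303a (median 0.65), set against 21.5%, and none differed between Tfg1-K60,61R-HA and Tfg1-HA (median 0.025). When 1 library was left out at a time, 3 to 6 of them passed for ubc9-6 and 5 or 6 for Tfg1-HA. ATG39 encodes a receptor in the outer nuclear membrane for autophagy of the nucleus and the perinuclear ER. It had 9.57 and 10.2 CPM in ubc9-6, 12.7 and 11.98 CPM in Tfg1-K60,61R-HA, 13.3 and 11.5 CPM in Tfg1-HA, against 4.89 and 4.81 CPM in W303a. Both W303a libraries lay well below every other library, by 1.03 ± 0.11 (adjusted p = 0.000665) for ubc9-6, 1.36 ± 0.11 (adjusted p = 8.61e-05) for Tfg1-HA and 1.35 ± 0.11 (adjusted p = 6.42e-05) for Tfg1-K60,61R-HA. ATG40, the receptor for autophagy of the cortical ER, had 16.4 and 16.1 CPM in ubc9-6, 18.9 and 18.9 CPM in Tfg1-K60,61R-HA, 17.2 and 19.1 CPM in Tfg1-HA, against 11.5 and 11.6 CPM in W303a. Again no library of the other strains overlapped W303a, and the log2 fold change was 0.50 ± 0.081 (adjusted p = 0.00545) for ubc9-6 and 0.65 ± 0.080 (adjusted p = 0.000483) for Tfg1-HA.

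ATG19 encodes the receptor that brings aminopeptidase I and its companions into Cvt vesicles, and ATG34, its neighbour on chromosome XV, encodes a related receptor for alpha-mannosidase during starvation. ATG19 had 95.5 and 105 CPM in ubc9-6, 132 and 119 CPM in Tfg1-K60,61R-HA, 115 and 116 CPM in Tfg1-HA, against 73.96 and 71.6 CPM in W303a. All 6 libraries of the other strains were above W303a, by 0.46 ± 0.066 (adjusted p = 0.00276) in ubc9-6 and 0.67 ± 0.066 (adjusted p = 0.000176) in Tfg1-HA. ATG34 had 20.2 and 22.2 CPM in ubc9-6, 17.6 and 19.9 CPM in Tfg1-K60,61R-HA, 17.8 and 19.02 CPM in Tfg1-HA, against 14.4 and 14.2 CPM in W303a and, like ATG32, its highest level in ubc9-6. Its log2 fold change was 0.57 ± 0.090 (adjusted p = 0.00489) for ubc9-6 and 0.36 ± 0.091 (adjusted p = 0.0127) for Tfg1-HA. Without ubc9-6 replicate 2 the adjusted p for ATG34 in ubc9-6 was 0.055, and without Tfg1-HA replicate 2 that in Tfg1-HA was 0.0768.

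ATG32 encodes the mitophagy receptor of the mitochondrial outer membrane and ATG33 another outer membrane protein needed for mitophagy. The pair did not move together. ATG33 had 52.6 and 52.1 CPM in ubc9-6, 78.7 and 65.7 CPM in Tfg1-K60,61R-HA, 63.7 and 68.2 CPM in Tfg1-HA, against 42.1 and 41.3 CPM in W303a, with no overlap between W303a and the rest. Its log2 fold change was 0.33 ± 0.081 (adjusted p = 0.0256) for ubc9-6 and 0.66 ± 0.080 (adjusted p = 0.000431) for Tfg1-HA, and the call for ubc9-6 was lost when ubc9-6 replicate 1, ubc9-6 replicate 2 or either W303a library was left out. ATG32 had 30.4 and 30.9 CPM in ubc9-6, 24.5 and 22.7 CPM in Tfg1-K60,61R-HA, 24.4 and 25.8 CPM in Tfg1-HA, against 27.2 and 26.4 CPM in W303a. Its ubc9-6 libraries were the highest and its tagged libraries the lowest, with 0.19 ± 0.065 (adjusted p = 0.0661) for ubc9-6, -0.093 ± 0.066 (adjusted p = 0.28) for Tfg1-HA and -0.18 ± 0.066 (adjusted p = 0.0494) for Tfg1-K60,61R-HA, where the call held in 2 of 15 alternative settings. ATG36, the receptor for autophagy of peroxisomes, had 9.17 and 9.22 CPM in ubc9-6, 10.6 and 10.3 CPM in Tfg1-K60,61R-HA, 11.1 and 10.1 CPM in Tfg1-HA, against 7.37 and 7.999 CPM in W303a, and gave 0.26 ± 0.099 (adjusted p = 0.097) for ubc9-6 and 0.46 ± 0.098 (adjusted p = 0.0063) for Tfg1-HA.

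**Figure D4:**
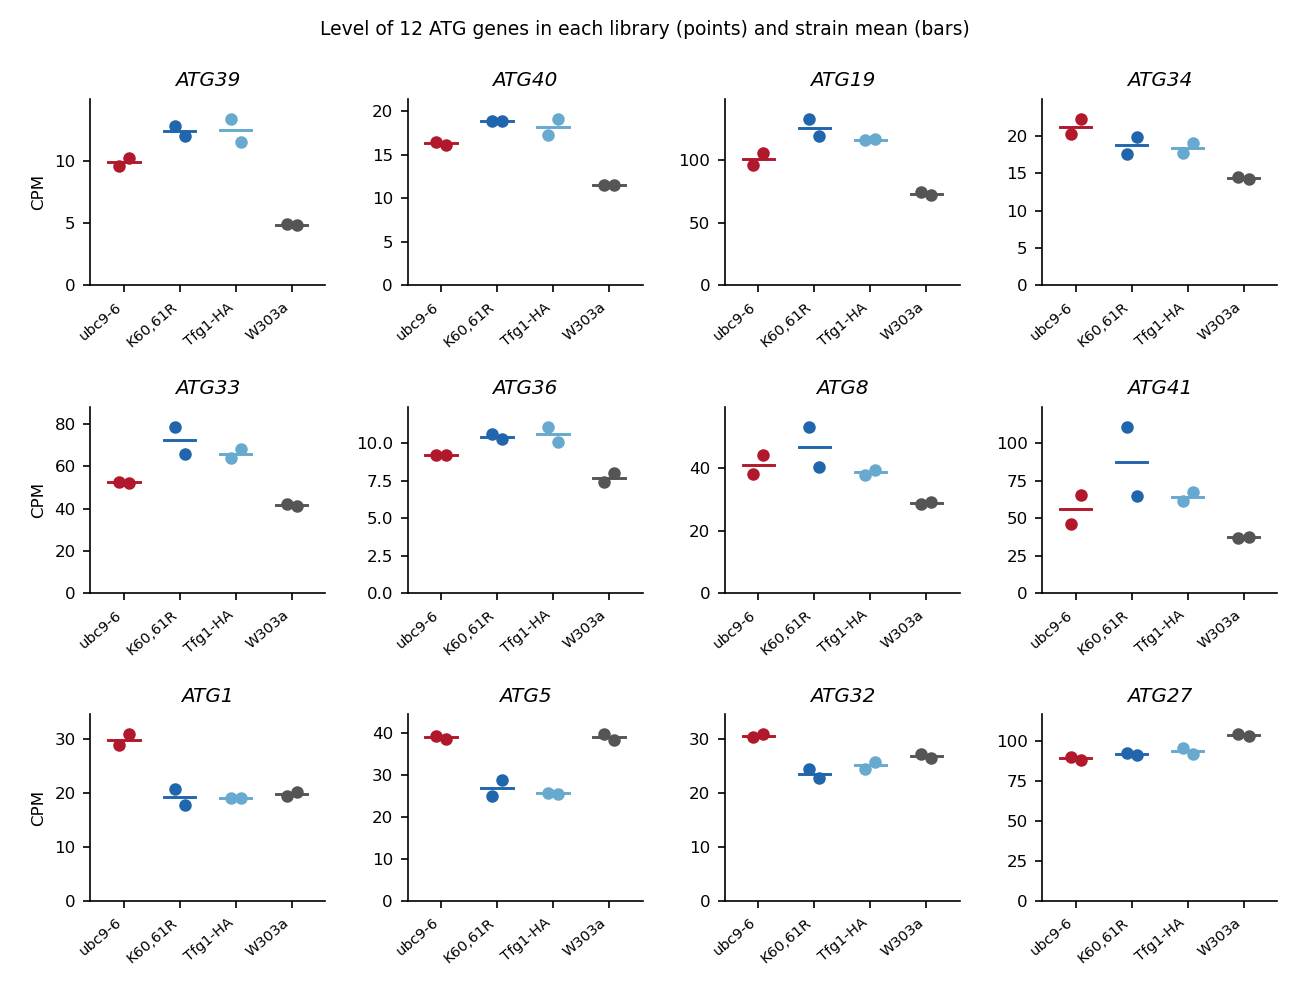
Level of 12 ATG genes in each library (vertical axes, CPM from 0, with their own scales) in ubc9-6, Tfg1-K60,61R-HA (K60,61R on the axes), Tfg1-HA and W303a. Points are libraries and bars are means of 2. ATG39 lies at 9.57 to 13.3 CPM in the first 3 strains and under 5 CPM in W303a, ATG1 is high in ubc9-6 alone, and ATG5 is low in both tagged strains.

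Sequence upstream of some of the receptor genes is shown for the motifs of regulators known to act on autophagy genes. Within the 500 bases before the start codon, on both strands, GATAAG, the core bound by GATA factors such as Gln3, Gat1 and Gzf3, was found for 14 of the 34 ATG genes (41.2%) and for 22.76% of all genes. AGGGG, the stress response element bound by Msn2 and Msn4, was found for 16 (47.1%, against 34.03% of all genes), TGACTC, the core of the Gcn4 site, for 7 (20.6%, against 12.58%) and AGCCGCC, the core of the Ume6 site, for 0 of 34 (0.0%, against 4.07%). Of the 15 genes higher in Tfg1-HA than in W303a, 10 had a GATAAG and 8 an AGGGG, against 4 and 8 of the other 19. Of the 7 genes higher in ubc9-6, 5 had a GATAAG and 4 an AGGGG, against 9 and 12 of the other 27. TGACTC went the other way, with 2 of the 15 against 5 of the other 19 for Tfg1-HA, and 1 of the 7 against 6 of the other 27 for ubc9-6. A match is only a description of these letters, and the 500 bases can reach into a neighbouring gene. The windows below show, in the sense of the gene, the match in capitals with 20 bases on each side, in the R64 (sacCer3) assembly from RefSeq. ATG39 held both motifs close together on the opposite strand, so that they read as their complements CTTATC and CCCCT. The matches shown for ATG33 and ATG34 were also on the opposite strand, and those for ATG36 and ATG19 on the strand of the gene. Left out are a further AGGGG match of ATG39 at 316 bases, a further GATAAG match of ATG33 at 49 and a GATAAG of ATG19 at 87. Windows of ATG32 and ATG40 are also left out. ATG32, which was not higher in Tfg1-HA than in W303a, had GATAAG matches at 62, 68 and 87 bases and an AGGGG match at 264. ATG40 had a GATAAG at 91 bases.
ATG39, GATA match 251 bases before the start codon, chrXII:759059-759104, minus strand: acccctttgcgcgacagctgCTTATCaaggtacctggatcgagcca
ATG39, stress element 270 bases before the start codon, chrXII:759079-759123, minus strand: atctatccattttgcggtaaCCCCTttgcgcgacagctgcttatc
ATG33, GATA match 311 bases before the start codon, chrXII:839990-840035, plus strand: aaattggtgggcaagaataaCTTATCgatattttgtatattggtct
ATG36, GATA match 460 bases before the start codon, chrX:83411-83456, minus strand: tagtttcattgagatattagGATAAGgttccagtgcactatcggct
ATG19, stress element 170 bases before the start codon, chrXV:168537-168581, plus strand: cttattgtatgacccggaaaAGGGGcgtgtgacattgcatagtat
ATG34, stress element 187 bases before the start codon, chrXV:165507-165551, plus strand: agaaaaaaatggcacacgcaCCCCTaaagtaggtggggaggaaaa

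The Atg1 kinase complex was led by ATG1, the gene of the kinase that starts autophagosome formation. ATG1 had 28.9 and 30.9 CPM in ubc9-6, 20.7 and 17.8 CPM in Tfg1-K60,61R-HA, 19.1 and 19.1 CPM in Tfg1-HA, against 19.4 and 20.2 CPM in W303a. The ubc9-6 libraries stood above all others, which lay between 17.8 and 20.7 CPM, with a log2 fold change of 0.60 ± 0.084 (adjusted p = 0.00272) for ubc9-6 against W303a and -0.053 ± 0.085 (adjusted p = 0.643) for Tfg1-HA against W303a. ATG1 remained higher in ubc9-6 without any 1 library, at 0.55 to 0.64, with an adjusted p of at most 0.0353. ATG13, whose product tethers and activates Atg1, had 76.3 and 77.9 CPM in ubc9-6, 78.3 and 73.3 CPM in Tfg1-K60,61R-HA, 79.9 and 77.02 CPM in Tfg1-HA, against 69.1 and 71.3 CPM in W303a, and gave 0.13 ± 0.047 (adjusted p = 0.0736) for ubc9-6 and 0.16 ± 0.047 (adjusted p = 0.0245) for Tfg1-HA. The ATG13 call for Tfg1-HA was lost with DESeq2. ATG11, the scaffold for selective autophagy, had 47.9 and 48.001 CPM in ubc9-6, 34.4 and 38.9 CPM in Tfg1-K60,61R-HA, 37.6 and 38.7 CPM in Tfg1-HA, against 42.3 and 42.8 CPM in W303a. Its ubc9-6 libraries were the highest and its tagged libraries the lowest, with 0.17 ± 0.063 (adjusted p = 0.0842) for ubc9-6, -0.16 ± 0.063 (adjusted p = 0.0757) for Tfg1-HA and -0.22 ± 0.064 (adjusted p = 0.0216) for Tfg1-K60,61R-HA. The scaffold of starvation-induced autophagy, ATG17, ATG29 and ATG31, did not pass in any comparison, with log2 fold changes from -0.19 (ATG17) to 0.12 (ATG29) for ubc9-6. ATG29 shares 24 bases with the overlapping gene SET6, and reads there were counted for neither.

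Among the genes of Atg9 transport and lipid transfer, ATG41 varied most, also between replicates. It had 46.1 and 65.7 CPM in ubc9-6, 111 and 64.6 CPM in Tfg1-K60,61R-HA, 61.2 and 67.5 CPM in Tfg1-HA, against 37.1 and 37.4 CPM in W303a. Every library of the other strains was above W303a, but Tfg1-K60,61R-HA replicate 1 was 1.5-fold or more above replicate 2, the only such pair among the ATG genes. The log2 fold change was 0.58 ± 0.24 (adjusted p = 0.119) for ubc9-6, 0.79 ± 0.24 (adjusted p = 0.0289) for Tfg1-HA and 0.45 ± 0.23 (adjusted p = 0.537) between Tfg1-K60,61R-HA and Tfg1-HA, the highest of the 34 in the last comparison. That value was 0.0044 without Tfg1-K60,61R-HA replicate 1 and 0.79 without replicate 2. ATG9, which encodes the transmembrane lipid scramblase of the seed vesicles, had 29.8 and 29.7 CPM in ubc9-6, 29.3 and 31.5 CPM in Tfg1-K60,61R-HA, 29.8 and 31.8 CPM in Tfg1-HA, against 26.3 and 24.8 CPM in W303a. Its W303a libraries were the lowest, by 0.22 ± 0.067 (adjusted p = 0.0501) for ubc9-6 and 0.27 ± 0.067 (adjusted p = 0.0123) for Tfg1-HA. ATG2, the gene of the lipid transfer protein that bridges the ER and the growing membrane, had 43.6 and 44.3 CPM in ubc9-6, 42.4 and 45.8 CPM in Tfg1-K60,61R-HA, 45.9 and 48.6 CPM in Tfg1-HA, against 40.04 and 38.4 CPM in W303a, with 0.17 ± 0.059 (adjusted p = 0.0767) for ubc9-6 and 0.27 ± 0.058 (adjusted p = 0.00667) for Tfg1-HA. ATG27 went the other way. It had 90.3 and 88.2 CPM in ubc9-6, 92.4 and 91.3 CPM in Tfg1-K60,61R-HA, 95.5 and 92.2 CPM in Tfg1-HA, against 104 and 103 CPM in W303a, with all libraries of the other strains below W303a, by -0.22 ± 0.040 (adjusted p = 0.00916) for ubc9-6 and -0.15 ± 0.040 (adjusted p = 0.0196) for Tfg1-HA. The ATG27 call for ubc9-6 was lost without ubc9-6 replicate 2 or either W303a library. That for Tfg1-HA was lost with DESeq2 and without Tfg1-HA replicate 2 or either W303a library. ATG23, which encodes a peripheral partner of Atg9 vesicles, passed only for Tfg1-K60,61R-HA against W303a, with 0.18 ± 0.063 (adjusted p = 0.0468), and had 29.6 and 31.5 CPM in ubc9-6, 30.4 and 30.99 CPM in Tfg1-K60,61R-HA, 29.8 and 29.4 CPM in Tfg1-HA, against 26.3 and 28.04 CPM in W303a. ATG18, whose product binds phosphoinositides with Atg2, passed in no comparison, with 0.046 for ubc9-6 and 0.11 for Tfg1-HA.

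In the conjugation systems, ATG8 was higher in all 3 other strains than in W303a, and ATG5 was lower in both tagged strains. ATG8 had 38.002 and 44.1 CPM in ubc9-6, 53.2 and 40.4 CPM in Tfg1-K60,61R-HA, 37.8 and 39.4 CPM in Tfg1-HA, against 28.4 and 29.2 CPM in W303a. W303a was the lowest, by 0.51 ± 0.12 (adjusted p = 0.0244) for ubc9-6, 0.42 ± 0.12 (adjusted p = 0.0242) for Tfg1-HA and 0.70 ± 0.12 (adjusted p = 0.00205) for Tfg1-K60,61R-HA. ATG8 no longer passed for ubc9-6 without either W303a library or without ubc9-6 replicate 2, where its adjusted p was 0.174. Between Tfg1-K60,61R-HA and Tfg1-HA the difference was 0.28 ± 0.12 (adjusted p = 0.513), with a 95% interval of 0.0041 to 0.56. ATG5, which encodes the acceptor of Atg12, had 39.5 and 38.7 CPM in ubc9-6, 25.2 and 28.97 CPM in Tfg1-K60,61R-HA, 25.8 and 25.6 CPM in Tfg1-HA, against 39.8 and 38.4 CPM in W303a. Both tagged strains lay below both ubc9-6 and W303a, which overlapped. The log2 fold change was -0.60 ± 0.072 (adjusted p = 0.000404) for Tfg1-HA and -0.53 ± 0.072 (adjusted p = 0.000562) for Tfg1-K60,61R-HA against W303a, while that for ubc9-6 was 0.0019 ± 0.070 (adjusted p = 0.987) with a 95% interval of -0.16 to 0.16. ATG7, the activating enzyme of both conjugation reactions, had 23.4 and 22.4 CPM in ubc9-6, 26.8 and 27.1 CPM in Tfg1-K60,61R-HA, 27.1 and 25.2 CPM in Tfg1-HA, against 20.7 and 19.2 CPM in W303a, with 0.20 ± 0.072 (adjusted p = 0.0754) for ubc9-6 and 0.39 ± 0.071 (adjusted p = 0.00293) for Tfg1-HA. ATG4, the protease that processes Atg8, had 30.6 and 32.5 CPM in ubc9-6, 35.1 and 31.5 CPM in Tfg1-K60,61R-HA, 32.03 and 30.6 CPM in Tfg1-HA, against 28.04 and 26.2 CPM in W303a, with 0.22 ± 0.074 (adjusted p = 0.0663) for ubc9-6 and 0.21 ± 0.074 (adjusted p = 0.0489) for Tfg1-HA, where the call held in 6 of 15 alternative settings. ATG3 and ATG10, the conjugating enzymes for Atg8 and Atg12, and ATG12 and ATG16 passed in no comparison. ATG10 had the lowest log2 fold change of the 34 between Tfg1-K60,61R-HA and Tfg1-HA, with -0.23 ± 0.15 (adjusted p = 0.606), and 4.80 and 4.95 CPM in ubc9-6, 4.55 and 3.86 CPM in Tfg1-K60,61R-HA, 4.46 and 5.40 CPM in Tfg1-HA, against 4.55 and 4.10 CPM in W303a. The strain means of ATG12 were within 1.04-fold of each other.

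ATG14, which encodes the subunit that directs the phosphatidylinositol 3-kinase complex to autophagy, had 9.05 and 8.99 CPM in ubc9-6, 11.4 and 8.88 CPM in Tfg1-K60,61R-HA, 9.31 and 10.1 CPM in Tfg1-HA, against 7.14 and 7.20 CPM in W303a. Its log2 fold change was 0.33 ± 0.13 (adjusted p = 0.106) for ubc9-6 and 0.44 ± 0.13 (adjusted p = 0.0258) for Tfg1-HA. ATG38, another subunit of that complex, gave 0.12 ± 0.091 (adjusted p = 0.391) for ubc9-6 and 0.25 ± 0.091 (adjusted p = 0.0544) for Tfg1-HA. At the vacuole, ATG22, an amino acid exporter of the vacuolar membrane, had 48.5 and 51.6 CPM in ubc9-6, 75.7 and 52.4 CPM in Tfg1-K60,61R-HA, 55.3 and 49.9 CPM in Tfg1-HA, against 39.4 and 40.4 CPM in W303a, and passed only for Tfg1-K60,61R-HA against W303a, with 0.68 ± 0.15 (adjusted p = 0.00499). ATG15, the lipase that opens autophagic bodies, had 27.2 and 25.8 CPM in ubc9-6, 25.4 and 22.6 CPM in Tfg1-K60,61R-HA, 27.6 and 26.8 CPM in Tfg1-HA, against 24.03 and 25.5 CPM in W303a. ATG15 was among the lowest between Tfg1-K60,61R-HA and Tfg1-HA, at -0.18 ± 0.075 (adjusted p = 0.512), and so was ATG31, at -0.14 ± 0.12 (adjusted p = 0.7). ATG26, a sterol glucosyltransferase, had 95.6 and 95.9 CPM in ubc9-6, 93.3 and 100.3 CPM in Tfg1-K60,61R-HA, 93.6 and 101 CPM in Tfg1-HA, against 81.5 and 87.6 CPM in W303a, with 0.18 ± 0.058 (adjusted p = 0.0617) for ubc9-6 and 0.20 ± 0.058 (adjusted p = 0.0229) for Tfg1-HA. ATG20 and ATG21, phosphoinositide-binding proteins of the Cvt pathway, lay between -0.033 and 0.063 in the comparisons of ubc9-6 and Tfg1-HA with W303a.

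Whether the effect of ubc9-6 differed from that of the Tfg1 substitutions was tested directly, as the log2 fold change of ubc9-6 against W303a minus that between Tfg1-K60,61R-HA and Tfg1-HA, contrasts that share no library. The difference passed for 3 ATG genes, all with the higher value for ubc9-6 (8.82% of the 34, against 6.08% of all genes tested and 3.22% in that direction). It was 1.04 ± 0.15 (adjusted p = 0.00753) for ATG39, 0.58 ± 0.12 (adjusted p = 0.0317) for ATG1 and 0.54 ± 0.13 (adjusted p = 0.0454) for ATG34. The first contrast holds the TRP1 marker difference and the second does not, so the marker and the ubc9-6 allele cannot be told apart in it, and ATG39 and ATG34 were also higher in Tfg1-HA than in W303a. The median over the ATG genes was 0.19, with 30 of 34 positive, against -0.0018 for all genes. The count was 0 without W303a replicate 2, 1 without any other library of ubc9-6, Tfg1-HA or W303a, 6 without Tfg1-K60,61R-HA replicate 1 and 5 without replicate 2.

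To order the strains, ubc9-6 was also compared with the mean of both tagged strains, a comparison chosen after the values had been seen. Here 4 ATG genes were higher and 4 lower in ubc9-6, 23.5% of the 34 against 48.9% of all genes tested (24.8% higher and 24.1% lower). Higher in ubc9-6 were ATG1 with 0.64 ± 0.071 (adjusted p = 0.000251), ATG5 with 0.57 ± 0.061 (adjusted p = 0.000205), ATG11 with 0.36 ± 0.054 (adjusted p = 0.001) and ATG32 with 0.33 ± 0.056 (adjusted p = 0.00173). Lower in ubc9-6 were ATG33 with -0.40 ± 0.069 (adjusted p = 0.00197), ATG39 with -0.32 ± 0.091 (adjusted p = 0.0178), ATG19 with -0.26 ± 0.056 (adjusted p = 0.0053) and ATG7 with -0.21 ± 0.061 (adjusted p = 0.0217). The order for ATG39, ATG33 and ATG19 was thus both tagged strains, then ubc9-6, then W303a, whereas that for ATG1 was ubc9-6 above 3 strains that did not differ from each other beyond the test. For ATG40, ATG36, ATG8 and ATG14 the difference between ubc9-6 and the tagged strains did not pass, at -0.18, -0.19, -0.053 and -0.14. Their adjusted p-values in the quasi-likelihood test were 0.0544, 0.093, 0.699 and 0.322, and ATG40 passed with DESeq2's size factors in edgeR. Without ubc9-6 replicate 1 this comparison kept 5 genes, having lost ATG7, ATG19 and ATG39, and without replicate 2 it kept 6, having lost ATG7 and ATG39.

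Genes of the pathway that are not named ATG were read from the same fit, in which 11.4% of all genes were higher and 9.36% lower in ubc9-6 than in W303a, and 21.5% were higher and 21.5% lower in Tfg1-HA. Of 8 genes for Cvt cargo and vacuolar hydrolases, 3 were higher in ubc9-6 (against 11.4% of all genes) and 6 in Tfg1-HA (against 21.5%), with median log2 fold changes of 0.20 and 0.30. They included APE1, the Cvt cargo aminopeptidase I, with 0.62 ± 0.090 (adjusted p = 0.00304) for ubc9-6 and 0.85 ± 0.090 (adjusted p = 0.000231) for Tfg1-HA. AMS1, the alpha-mannosidase carried by Atg19 and Atg34, gave 0.42 ± 0.083 (adjusted p = 0.0111) for ubc9-6, and PRB1, vacuolar proteinase B, gave 0.31 ± 0.089 (adjusted p = 0.0414). PRC1, carboxypeptidase Y, gave 0.57 ± 0.056 (adjusted p = 0.000175) for Tfg1-HA, and PEP4, vacuolar proteinase A, gave 0.35 ± 0.071 (adjusted p = 0.00489). Of the 4 core genes of the phosphatidylinositol 3-kinase complexes, VPS34, the kinase itself, passed for ubc9-6 with 0.23 ± 0.051 (adjusted p = 0.0169). In Tfg1-HA 3 of the 4 passed, VPS15 with 0.21, VPS30 with 0.18 and VPS34 with 0.15, and the median over the list was 0.17. Of 6 trafficking partners, YPT1, a Rab GTPase gene, was higher in Tfg1-HA, with 0.19 ± 0.047 (adjusted p = 0.0137), and none passed in ubc9-6, where they lay between -0.061 and 0.13. Of 10 vacuolar fusion genes, the SNARE gene VTI1 was higher in ubc9-6, with 0.20 ± 0.041 (adjusted p = 0.0142), and VTI1 and the Rab GTPase gene YPT7 in Tfg1-HA, with 0.27 and 0.16. Of 6 other genes of selective autophagy, VPS13, which encodes a lipid transfer protein, was higher in ubc9-6, with 0.24 ± 0.055 (adjusted p = 0.0202), and 4 were higher in Tfg1-HA, led by CUE5, a ubiquitin-binding receptor, with 0.29, UTH1 with 0.20 and LNP1 with 0.19.

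Upstream of the machinery, 1 of 19 genes of the TORC1, protein kinase A, Snf1 and Gcn2 pathways was higher in ubc9-6 than in W303a (against 11.4% of all genes), RIM15 with 0.26 ± 0.056 (adjusted p = 0.0152). In Tfg1-HA 6 were higher and 1 lower (against 21.5% of all genes in each direction). Among them were TPK2, a catalytic subunit of protein kinase A, which is known to inhibit autophagy, with 0.60 ± 0.043 (adjusted p = 5.06e-05), BCY1, its regulatory subunit, with 0.20, and TPK3, another catalytic subunit, with -0.17. Of 18 genes for transcription regulators of ATG genes, 2 were higher and 4 lower in ubc9-6 (against 11.4% and 9.36% of all genes), and 1 was higher and 7 lower in Tfg1-HA (against 21.5% in each direction), so the higher share in ubc9-6 was near that of all genes. DAL80, a GATA repressor that is itself a target of nitrogen catabolite repression, had the lowest value in both, with -0.92 ± 0.089 (adjusted p = 0.000414) for ubc9-6 and -0.85 ± 0.088 (adjusted p = 0.000219) for Tfg1-HA. The next lowest to pass in ubc9-6 were GAT1, a GATA activator, with -0.27 and RPD3, a histone deacetylase, with -0.19, and in Tfg1-HA DCP2, a decapping enzyme, with -0.24 and SPT10 with -0.23. The higher ones were RIM15, which is also in this list, and RPH1 in ubc9-6 and MSN4 in Tfg1-HA, with 0.42 ± 0.059 (adjusted p = 0.000849). RPH1, a histone demethylase known to repress ATG genes in rich medium, gave 0.20 ± 0.055 (adjusted p = 0.0377) for ubc9-6 and -0.20 ± 0.056 (adjusted p = 0.0202) for Tfg1-HA.

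Marker genes of nutrient and stress responses moved beside these results. Of 24 targets of nitrogen catabolite repression, genes induced when good nitrogen sources are lacking, 4 were higher and 9 lower in ubc9-6 than in W303a (against 11.4% and 9.36% of all genes), and 5 were higher and 13 lower in Tfg1-HA (against 21.5% in each direction). Their sum was 4270 to 4416 CPM in ubc9-6, 4954 to 5338 CPM in Tfg1-K60,61R-HA and 4734 to 4924 CPM in Tfg1-HA, against 5616 to 5836 CPM in W303a. The lowest in ubc9-6 were MEP2, an ammonium permease gene, with -1.19 ± 0.11 (adjusted p = 0.000349), DAL80, and GAP1, the general amino acid permease gene, with -0.85. GAP1 alone held a large part of the sum, with a mean of 1275 CPM in ubc9-6, 1869 CPM in Tfg1-K60,61R-HA and 1678 CPM in Tfg1-HA, against 2300 CPM in W303a. The highest in ubc9-6 were PUT1, which encodes proline oxidase, with 0.79 ± 0.066 (adjusted p = 0.000223), PUT4, the proline permease gene, with 0.56, and GDH2, a glutamate dehydrogenase gene, with 0.38. In Tfg1-HA the lowest were DAL80, MEP2 with -0.83 and UGA4 with -0.83, and the highest PUT4 with 1.19, PUT1 with 0.37 and PTR2 with 0.36. Of 22 stress response genes, 18 were higher in ubc9-6 (against 11.4% of all genes), 20 were higher and 1 lower in Tfg1-HA (against 21.5% in each direction), and 0 passed between Tfg1-K60,61R-HA and Tfg1-HA. Their sum was 4624 and 5091 CPM in ubc9-6, 7324 and 6575 CPM in Tfg1-K60,61R-HA and 6451 and 6818 CPM in Tfg1-HA, against 3242 and 3099 CPM in W303a. The highest in ubc9-6 were HSP26, a small heat shock protein gene, with 2.83 ± 0.21 (adjusted p = 9.58e-05), DDR2 with 2.62 and HSP12 with 1.37. In Tfg1-HA the highest were HSP26 with 3.323, DDR2 with 2.43 and GPH1, glycogen phosphorylase, with 2.35, and the lower one was SPI1 with -0.64. The part of these nutrient and stress responses in the ATG levels was not tested.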

How the data were processed

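RNA was enriched by polyA selection and made into stranded libraries. According to the submitters' processing notes and the study's methods, the authors aligned reads with HISAT2 2.1.0 to sacCer3 and counted fragments per gene over RefSeq exons with featureCounts (Subread 2.0.0), without strand, multiply mapped or overlapping assignment. The deposited counts are whole numbers, not normalized. Since strand was not used, reads from antisense transcripts cannot be told apart. The deposited tables of the authors' own comparisons (log2 fold changes, likelihood ratios and p-values from edgeR 3.32.1) were not used. Counts were analysed here with edgeR 4.0.16 in R 4.3.3: filterByExpr, TMM scaling, and 1 quasi-likelihood fit of 4 strain means to all 8 libraries, with the comparisons read from it as contrasts and Benjamini-Hochberg adjustment over 5909 genes. The sources used here do not give the authors' design. DESeq2 1.42.0, edgeR's likelihood ratio test, other filters and scalings, a replicate block and leaving out each library were alternatives. The analysis was tested on simulated data. ATG roles and the other gene lists came from textbook knowledge. The genes and lists were chosen with earlier results of these data known. Full values are given for ATG genes that passed in a comparison, for the 3 highest and lowest of each, and for 7 set beforehand (ATG1, ATG8, ATG9, ATG13, ATG19, ATG32 and ATG41). Of other lists, up to 3 passing genes in each direction are named for ubc9-6 and Tfg1-HA against W303a, except 1 that is not reported here. Positions, overlaps and upstream sequence came from the RefSeq annotation of R64, in which all 34 genes had the deposited coordinates, and no ATG gene had a near-identical copy by BLAST 2.17.0.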

Additional observations from a re-analysis of the deposited data

Results flagged for a closer look

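For 3 ATG genes the effect of ubc9-6 against W303a differed from that between Tfg1-K60,61R-HA and Tfg1-HA by edgeR's test of the difference itself, on the log2 scale. ATG39, the receptor for autophagy of the nucleus, gave 1.04 ± 0.15 (adjusted p = 0.00753), with both ubc9-6 libraries above both W303a libraries and the libraries of the tagged strains overlapping. ATG1, the autophagy-initiating kinase, gave 0.58 ± 0.12 (adjusted p = 0.0317), and ATG34, a cargo receptor, gave 0.54 ± 0.13 (adjusted p = 0.0454), with the same pattern. Against W303a, ATG39 was also higher in Tfg1-HA, by 1.36 beside 1.03 in ubc9-6, and ATG34 by 0.36 beside 0.57, whereas ATG1 gave -0.053 in Tfg1-HA beside 0.60 in ubc9-6. The contrast with W303a holds the TRP1 marker difference and the other does not, so the marker and the ubc9-6 allele cannot be told apart. Over the other settings the adjusted p ranged over 4.34e-05 to 0.0538 for ATG39, 0.00594 to 0.144 for ATG1 and 0.0189 to 0.186 for ATG34.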

How the results depend on the processing

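The count of ATG genes that passed moved with the libraries that set the spread. For ubc9-6 against W303a it was 8, became 21 (19 higher, 2 lower) with only the libraries compared in the fit, and ranged over 4 to 19 when 1 library was left out. Leaving out 1 library gave 0 to 4 between Tfg1-K60,61R-HA and Tfg1-HA, 7 to 21 for Tfg1-HA against W303a, 13 to 17 for Tfg1-K60,61R-HA against W303a, 0 to 6 for the difference of the effects, and 5 to 12 for ubc9-6 against both tagged strains. DESeq2's size factors in edgeR, no filter on low counts, at least 10 counts in every library, DESeq2 and edgeR's likelihood ratio test each gave counts within 1.5-fold of these, and DESeq2 gave no ATG gene an adjusted p between Tfg1-K60,61R-HA and Tfg1-HA. Over single genes that had passed, 716 of the values under another setting still passed, 121 did not, and 0 changed sign. Replicate numbers are shared by the labels, but the correlation of the difference between replicates ran from -0.18 to 0.17 among pairs of strains, so they were not read as pairs. A fit with the replicate number as a block gave 9, 0, 17 and 19 for the 4 comparisons in the order above (ATG4 was lost for Tfg1-HA and ATG32 for Tfg1-K60,61R-HA against W303a), 2 for the difference of the effects, where ATG1 was lost, and 8 for ubc9-6 against both tagged strains. The lowest count of an ATG gene in a library was 101 (ATG10), so no ATG gene was near the floor. With 2 libraries per strain, the median 95% half-width of an ATG log2 fold change was 0.18 for ubc9-6 against W303a.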

Other observations

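Tfg1-K60,61R-HA replicate 1 stood apart from its partner for a few ATG genes. ATG41 had 111 CPM there and 64.6 CPM in replicate 2, ATG22 had 75.7 and 52.4 CPM, and ATG8 had 53.2 and 40.4 CPM. The summed stress response genes were 7324 CPM in replicate 1 and 6575 CPM in replicate 2. Whether these belong together was not tested.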
